A study of Sus scrofa with 12 samples.

Results

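The early growth response genes EGR1, EGR2 and EGR3, the immediate early response genes IER2, IER3 and IER5, and SRF were followed in the Semimembranosus muscle, a large muscle of the pig's ham. These 7 genes were chosen by symbol, with the group differences of the same counts already known, and the values that led to the choice are those of high against low intramuscular fat (IMF). All 7 symbols had an Ensembl identifier among the 25880 genes listed, all 7 had counts in every pig, and all 7 passed the filter on low counts. The 12 purebred Italian Large White pigs, housed in the same environment on the same diet and given no experimental treatment, had been picked for their extreme IMF, 6 high IMF pigs (pigs 1 to 6) and 6 low IMF pigs (pigs 7 to 12). By the labels each group held females and males in equal numbers, and the paper lists them as gilts and barrows, that is castrated males. They were 229 to 249 days old, and their muscle was collected in a commercial slaughterhouse and frozen in liquid nitrogen. According to the paper, the pigs were transported, electrically stunned and bled, and the chosen pigs were slaughtered on several different days. The day of each pig is not given in the sources used here, so the part of the slaughter day in the values below was not tested. RNA sequencing gave 131048805 to 178013997 counts per pig. These totals exceed the input reads that the study lists, so mates of a pair or several alignments of a read may each have been counted, and a count need not be an independent fragment.

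Early response genes are transcribed within minutes of a stimulus, from factors already present in the cell and without new protein. In the best known route, the MAP kinase ERK phosphorylates the ternary complex factors of the ELK family, which sit with serum response factor (SRF) on a CArG box in the promoter, while actin-regulated MRTF cofactors use the same SRF. EGR proteins are zinc finger transcription factors that carry the signal on to later genes, and their corepressors NAB1 and NAB2 limit them. In skeletal muscle, contraction, stretch and injury are known to induce them, and EGR3 is required for muscle spindles, the stretch sensors of the muscle.

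The sequence around the annotated starts is shown first, since the CArG box is what ties SRF to its early response targets. A window of 1000 bases on each side of the RefSeq start of each gene was searched in Sscrofa11.1 for CCNNNNNNGG with A or T at each N, a pattern whose reverse complement is of the same form, so that each match counts for both strands. Of 19551 protein-coding genes, 9.75% held at least 1 box, 0.604% at least 2, and 1 gene held 5 or more. That gene was EGR1, on chromosome 2 (ENSSSCG00000014336, chr2:140440829-140445302, plus strand). Its 5 boxes began between 157 and 501 bases past the RefSeq start and lay 378 to 722 bases before the coding start. Whether transcription in these muscles begins at the RefSeq start was not tested, so the boxes need not be transcribed. Each line below gives 30 bases in the direction of the gene, with the box in capitals. The 5 of EGR1 lie within chr2:140440976-140441349.
EGR1 box 1: cccggaaacgCCATATAAGGagcaggaagg
EGR1 box 2: ccggaaccacCCTTATTTGGgcagcgcctt
EGR1 box 3: ttgggcagcgCCTTATTTGGagcgccccga
EGR1 box 4: gccggtcttgCCATATTAGGgcttcctgct
EGR1 box 5: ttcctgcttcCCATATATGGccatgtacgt

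SRF itself, EGR3 and IER2 held boxes as well. The 2 boxes of SRF (ENSSSCG00000001661, chr7:38213300-38223686, plus strand, 7 exons) began 28 and 8 bases before its start, within chr7:38213262-38213311. EGR3 (ENSSSCG00000009630, chr14:6943184-6948507, minus strand) had 1 box, 453 bases before its start, at chr14:6948941-6948970. IER2 (ENSSSCG00000013753, chr2:65909638-65912491, minus strand, 1 exon) had 1 box, 209 bases before its start, at chr2:65912681-65912710.
SRF box 1: caggggctcaCCATATAAGGagcggcctcg
SRF box 2: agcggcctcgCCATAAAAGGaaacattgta
EGR3 box: ctttgtctgtCCATATATGGgcagctacgt
IER2 box: gggttcctgtCCTTATATGGgcagccggaa

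EGR2 (ENSSSCG00000010224, chr14:66280665-66291308, minus strand) has 2 RefSeq transcripts with different starts. No box lay around the outer start, and 2 boxes lay 615 and 318 bases before the inner start, inside the longer transcript. They are shown because box 2 of EGR2, the box of EGR3 and box 5 of EGR1 have the same letters.
EGR2 box 1: cggatcttcgCCTTTTTTGGaaagtcccgg
EGR2 box 2: gttcctcagtCCATATATGGgcagtgacgt

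No box was found in these windows for IER3 (ENSSSCG00000027607, chr7:23265560-23266905, minus strand) or IER5 (ENSSSCG00000015541, chr9:122633781-122635950, plus strand). In total 4 of the 7 genes held a box around the outermost start. An EGR binding site, GCGGGGGCG on either strand, was found in the windows of EGR1 and IER5 and in 17.0% of all genes, and the form GCGTGGGCG in none of the 7 genes and in 2.97% of all. A cyclic AMP response element, TGACGTCA, lay in 4.08% of all windows and, among the 7 genes, only before the inner start of EGR2. A match is a match of letters, and says nothing of whether a factor was bound in these muscles.

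**Figure D1:**
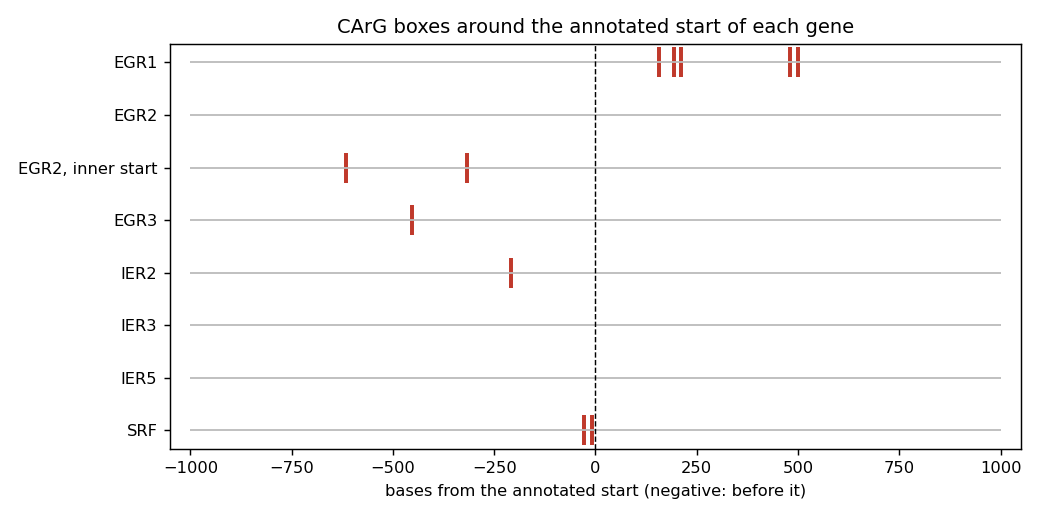
Positions of CArG boxes (red marks) within 1000 bases on each side of the annotated start (dashed line, 0) of each gene, in bases, with EGR2 also drawn from its inner start. EGR1 has 5 boxes past its start, SRF 2 next to its start, EGR3 and IER2 1 each before it, and IER3 and IER5 none.

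Several facts of the libraries stand beside the values that follow. Among the cell type marker lists, that of muscle fibres had the highest sum in every library. Of 8 fibre markers listed, the 3 with an identifier (ACTA1, CKM and TNNT3) summed to 29287 to 43327 CPM in the high IMF and 31686 to 57743 CPM in the low IMF pigs. CPM is a gene's count relative to its library's total after TMM normalization. The 13 genes of the mitochondrial genome summed to 37072 to 54489 CPM in the high IMF and 23186 to 52256 CPM in the low IMF pigs. Pig 6 stood apart in blood cell markers, of which 4 of 7 had an identifier: their sum was 653 CPM there and 47.6 to 128 CPM in the other pigs, while S100A8 was near 0 throughout. The 6 macrophage markers summed to 48.0 to 107 CPM in the high IMF and 58.02 to 99.0 CPM in the low IMF pigs, also highest in pig 6. The 7 adipocyte markers summed to 164 to 298 CPM in the high IMF and 129 to 353 CPM in the low IMF pigs, with LEP the lowest. Endothelial markers (5 of 7 with an identifier) lay at 97.9 to 131 against 102 to 166 CPM, fibro-adipogenic markers (6 of 6) at 1076 to 2196 against 1660 to 2642 CPM, smooth muscle and pericyte markers (6 of 6) at 2243 to 3122 against 2460 to 3684 CPM, and satellite cell markers (4 of 4) at 12.3 to 29.4 against 14.7 to 24.7 CPM. The part of other cell types in the results below was not tested. In muscle homogenates, fewer cells of a type and less RNA per cell cannot be told apart. Counts from the Y chromosome went against the labelled sex in 6 pigs, 2 of the high IMF group (pigs 3 and 5) and 4 of the low IMF group (pigs 7, 8, 9 and 10). Whether these libraries carry the right pig's label was not tested, and every difference between the groups below rests on the labels. The sequencing lane of each library was not used here, so within-lane values are not given.

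The 7 genes differed widely in level. Per length of RefSeq exons, which may differ from the Ensembl models that were counted, IER5 had the highest median over the 12 pigs at 38.2 RPKM, that is CPM per kilobase of exon. SRF followed at 10.2 RPKM and EGR1 at 7.43 RPKM, and these neighbours were not separated, since SRF exceeded EGR1 in 8 of 12 pigs. IER3 stood at 2.07 RPKM, below EGR1 in 12 of 12 pigs. EGR2 at 0.361 RPKM and IER2 at 0.329 RPKM were close, EGR2 being higher in 9 of 12 pigs. EGR3 was lowest at 0.0494 RPKM, with 10 to 105 counts per pig, the thinnest counts of the 7 genes. IER5 exceeded SRF in 11 of 12 pigs, and IER3 exceeded EGR2, and IER2 exceeded EGR3, in 12 of 12. The ranges over pigs of each gene and the next in this order overlapped in all 6 cases.

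They differed as widely in how much they varied between pigs. The highest pig exceeded the lowest by 25.1 times for EGR1, 12.5 times for IER3, 12.1 times for EGR3, 11.4 times for IER5, 7.64 times for EGR2 and 4.81 times for IER2. For SRF this ratio was 1.48. On the log2 CPM scale the SD over the 12 pigs was 1.28 for EGR1 and 0.16 for SRF. The biological coefficient of variation, edgeR's estimate of the spread between pigs of a group beyond counting error, was 0.703 for EGR1, higher than in 94.5% of the 14262 genes tested, and 0.583 for EGR3 (91.3%). IER3 had 0.530 (88.9%), IER5 0.461 (84.6%), EGR2 0.399 (78.6%) and IER2 0.378 (76.0%). SRF had 0.140, and only 2.78% of the genes tested were less variable. The regulator of the pathway was thus among the least variable genes of these muscles, and each of the other 6 genes was more variable than most genes.

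EGR1, the best studied of the EGR factors, ranged from 11.2 to 234 CPM in the high IMF pigs, with a median of 44.8. In the low IMF pigs it ranged from 9.32 to 52.5 CPM, with a median of 18.8. The groups overlapped: pigs 1, 5 and 6 lay above every low IMF pig, pig 3 lay below all low IMF pigs but pig 12, and pig 6 had more than any other pig by a wide margin. High IMF pigs had a mean of 71.3 ± 82.1 CPM (SD, n = 6) and low IMF pigs of 24.1 ± 15.3 CPM (SD, n = 6). The log2 fold change (log2FC) of low over high IMF was -1.57 with an SE of 0.62. Without pig 6 it was -0.69 (SE 0.46), the value nearest 0 when each pig was left out.

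EGR2, known from nerve myelination, lay between 1.92 and 8.86 CPM in the high IMF pigs, median 3.43, and between 1.16 and 2.85 CPM in the low IMF pigs, median 2.02. Pigs 1, 4, 5 and 6 were above every low IMF pig, pigs 2 and 3 fell within the low IMF range, and pig 12 was lowest. The log2FC was -1.02 (SE 0.33), and -0.64 (SE 0.23) without pig 6. The longer RefSeq transcript of EGR2 overlaps ADO, and the strand setting of the counting is not known, so that reads shared with ADO cannot be told apart.

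EGR3, the factor of the muscle spindle, had 0.117 to 0.833 CPM in the high IMF pigs, median 0.452, and 0.0691 to 0.353 CPM in the low IMF pigs, median 0.137. Pigs 1, 2, 4 and 6 were above every low IMF pig, and pigs 3 and 5 lay inside the low IMF range. The log2FC was -1.44 (SE 0.50), and -1.18 (SE 0.50) without pig 6.

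IER2, a nuclear protein linked to transcription, had 0.593 to 1.97 CPM in the high IMF pigs, median 1.15, and 0.410 to 1.00 CPM in the low IMF pigs, median 0.649. This was the gene nearest to separation: every high IMF pig but pig 3 was above every low IMF pig. The log2FC was -0.92 (SE 0.30), and -0.75 (SE 0.30) without pig 6.

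IER3, a stress-inducible regulator of cell survival, had 2.13 to 7.68 CPM in the high IMF pigs, median 2.46, and 0.615 to 4.02 CPM in the low IMF pigs, median 2.87. Its mean and median point in opposite directions, since pigs 5 and 6 were the highest of all, pigs 7 and 12 the lowest of all, and the other 4 high IMF pigs lay below the other 4 low IMF pigs. The log2FC was -0.51 (SE 0.44), and -0.14 (SE 0.41) without pig 6.

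IER5, which is known to bind heat shock factor 1 and protein phosphatase 2A, had 58.3 to 186 CPM in the high IMF pigs, median 95.2, and 16.4 to 97.8 CPM in the low IMF pigs, median 48.1. Pigs 3, 5 and 6 were above every low IMF pig and pigs 7, 9, 11 and 12 below every high IMF pig, while pigs 8 and 10 lay among the high IMF pigs. The log2FC was -0.997 (SE 0.39), and with each pig left out it ran from -1.23 (without pig 8) to -0.77 (without pig 3).

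SRF, the regulator itself, had 38.1 to 44.5 CPM in the high IMF pigs, median 41.0, and 40.8 to 56.5 CPM in the low IMF pigs, median 47.1. Pigs 7, 9, 10 and 11 were above every high IMF pig, and pigs 8 and 12 lay inside the high IMF range. The log2FC was 0.19 (SE 0.09), opposite in sign to the other 6 genes and small beside them, and 0.13 without pig 10, the highest pig.

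**Figure D2:**
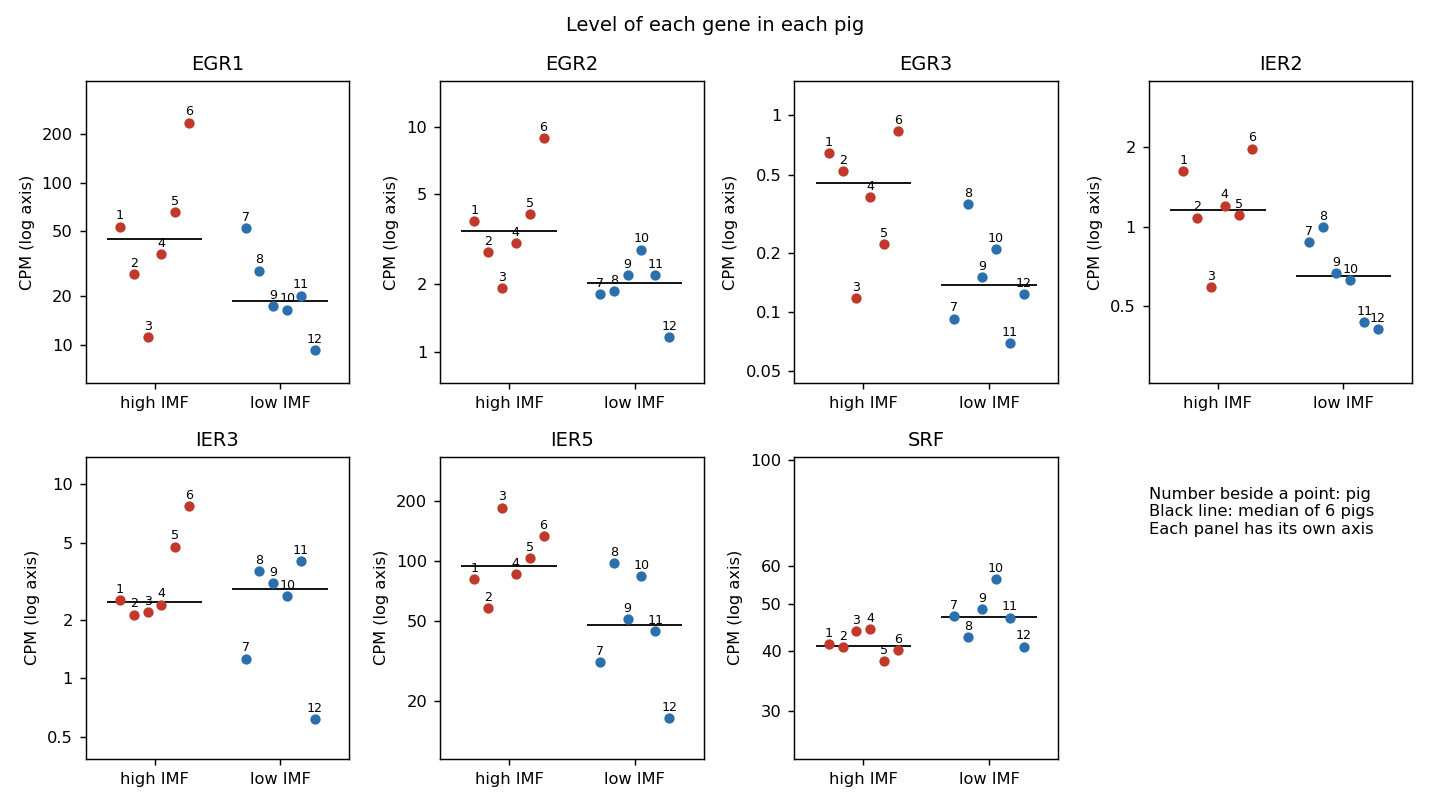
CPM (log axis, a different one in each panel) of each gene in the 6 high IMF (red) and 6 low IMF (blue) pigs, numbered, with a line at the group median. Pig 6 is the highest pig for EGR1 (234 CPM), EGR2, EGR3, IER2 and IER3, pig 12 the lowest for EGR1, EGR2, IER2, IER3 and IER5, and no gene separates the groups.

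In the fit over all 14262 genes, none of the 7 genes passed an adjusted p of 0.05 with a log2FC of at least 0.58 in size: by edgeR's quasi-likelihood test, adjusted after Benjamini-Hochberg, p ran from 0.420 (EGR2) to 0.715 (IER3). The same was true of every gene, 0% being called. By the DESeq2 Wald test, 0.39% of the 16685 genes with an adjusted p were called, and none of the 7, whose adjusted p ran from 0.139 (EGR2) to 0.747 (IER3). The log2FC was below 0 for 6 of the 7 genes, where 51.6% of all genes were, and at -0.58 or below for 5, where 4.99% of all genes were. An unadjusted p of at most 0.05 was given to 5 genes on the side of higher levels in high IMF, where 5.04% of all genes had it, and to 0 on the side of low IMF, where 5.38% had it. The groups did not overlap for 0 of the 7 genes. Over all genes, every high IMF pig was above every low IMF pig in 0.4%, and every low IMF pig above every high IMF pig in 0.259%. As the genes were chosen with this contrast known, nothing is read from these counts.

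Leaving out pig 6 brought the log2FC of each of the 7 genes nearer to 0, most for EGR1. Without it 4 of the 7 genes (EGR2, EGR3, IER2 and IER5) had an unadjusted p of at most 0.05 with the higher level in high IMF, where 3.34% of all genes did, and 5 had a log2FC of -0.58 or below, where 3.59% of all genes did. Y chromosome counts went with the labelled sex in 6 pigs, 4 high IMF (pigs 1, 2, 4 and 6) and 2 low IMF (pigs 11 and 12). Among these pigs the log2FC was -2.56 for EGR1, -1.45 for EGR2, -2.61 for EGR3 and -1.78 for IER2. It was -0.66 for IER3, -1.55 for IER5 and 0.08 for SRF. The adjusted p was 0.998 for each of the 7 genes by edgeR's quasi-likelihood test. This set keeps pigs 6 and 12, the highest and the lowest pig for 5 genes each, and leaves out pig 3.

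**Figure D3:**
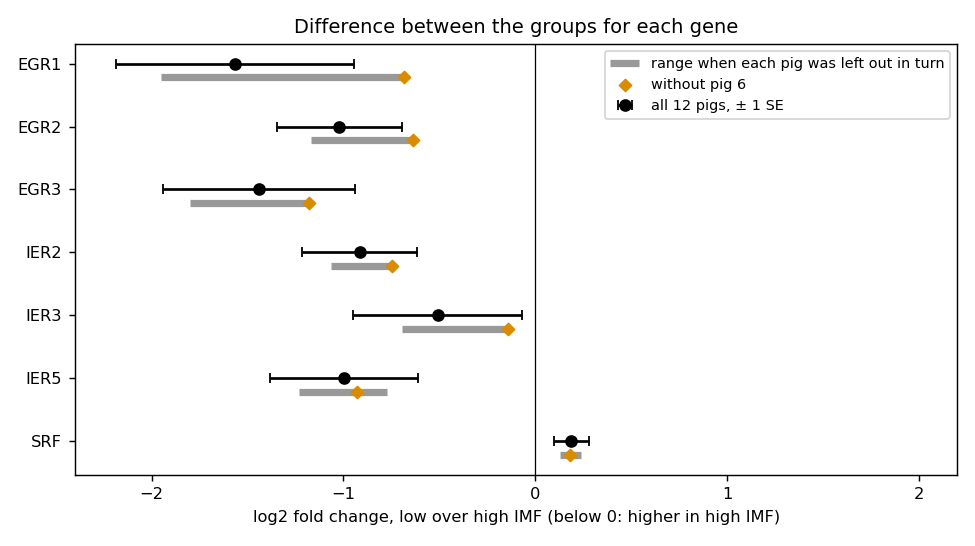
Log2FC of low over high IMF for each gene with all 12 pigs (black points, bars ± 1 SE), its range with each pig left out (grey) and its value without pig 6 (orange). EGR1 moves most, from -1.57 to -0.69 without pig 6, and SRF is the only gene to the right of 0.

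Read by pig, the ranks of the 6 genes other than SRF show where they ran together and where they did not. Pig 6 was among the 3 highest pigs for 6 of the 6 genes, and pigs 1 and 5 for 4 each. Pig 12 was among the 3 lowest for 5 of the 6, and was the lowest of all for the same number. Pig 3 did not move as a block: it was highest of all for IER5 and among the 3 lowest for EGR1, EGR3 and IER2. Pig 7 was low for EGR2, EGR3, IER3 and IER5, and ranked just behind pig 1 for EGR1. Blood cell markers were highest in pig 6, as given above. So was the sum of the heat shock genes with counts, at 4562 CPM in pig 6 and at most 3171 CPM in the other pigs. Pig 12 had the most MYH11, a smooth muscle myosin, at 135 CPM against 11.8 to 34.8 CPM in the other pigs. Of the 6 smooth muscle and pericyte markers, TAGLN and ACTA2 were also highest in pig 12, and DES, PDGFRB and RGS5 were not. The sum of the 6 was highest in pig 10.

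**Figure D4:**
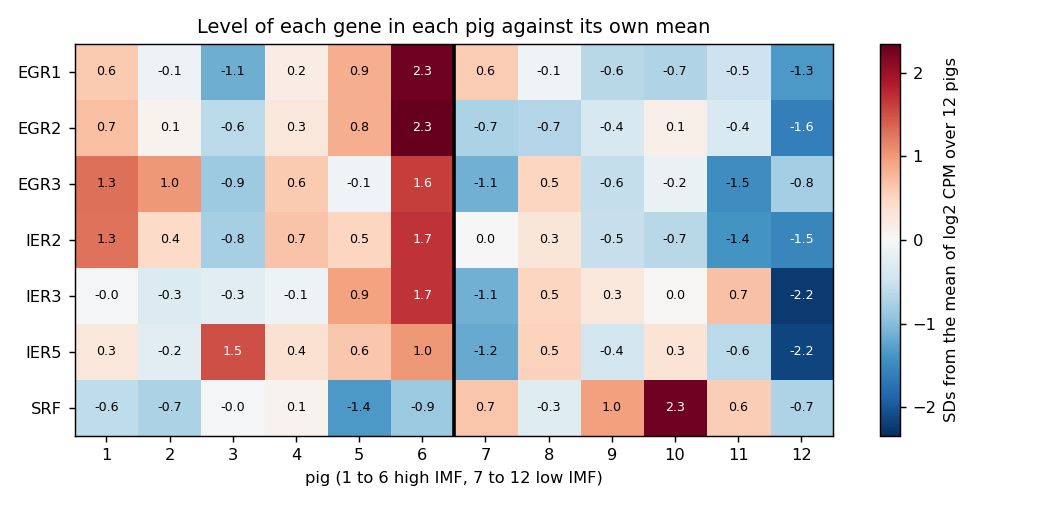
Level of each gene (rows) in each pig (columns, high IMF left of the black line) in SDs from the gene's own mean of log2 CPM over the 12 pigs. Pig 6 is the reddest and pig 12 the bluest column for the 6 genes other than SRF, and pig 3 splits IER5 (high) from EGR1, EGR3 and IER2 (low).

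Whether the genes moved together was asked over the 12 pigs, for all 21 pairs, with permutation p-values from 100000 resamples and Benjamini-Hochberg adjustment over the 21 pairs. Pearson's r of log2 CPM was above 0 for 15 pairs, and the 6 pairs below 0 were those with SRF. An adjusted p of at most 0.05 was reached by 7 pairs for r and by 2 pairs for Spearman's rho. The genes were chosen with the group difference known, so r over all 12 pigs and its p hold part of that difference. Centred on the mean of each group, which takes out the difference between the groups, 4 pairs remained (EGR1 with EGR2, EGR1 with IER2, EGR2 with IER3, and EGR3 with IER2), and without pig 6 there were 2 (EGR1 with IER2, and EGR3 with IER2).

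EGR1 and EGR3 each had their highest r with IER2. EGR1 and IER2 had r = 0.86 (permutation p = 0.00022, adjusted 0.00336) and rho = 0.88 (permutation p = 0.00034, adjusted 0.00714). Within the groups their r was 0.90 in high IMF (exact permutation p = 0.0319, n = 6) and 0.77 in low IMF (exact permutation p = 0.0736, n = 6), and r was 0.75 without pigs 6 and 12, which lay farthest from the median of EGR1. EGR3 and IER2 had r = 0.87 (permutation p = 0.00032, adjusted 0.00336) and rho = 0.86 (permutation p = 0.00071, adjusted 0.00745). Here r was 0.92 in high IMF (exact permutation p = 0.00694, n = 6), 0.58 in low IMF (exact permutation p = 0.221, n = 6) and 0.76 without pigs 1 and 6. Both relations kept their direction in either group.

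Between EGR1 and EGR2, r over all pigs was 0.85 (permutation p = 0.00106, adjusted 0.0073) and rho 0.66 (permutation p = 0.0234, adjusted 0.0982). In high IMF r was 0.99 (exact permutation p = 0.00139, n = 6, the smallest this test can give), and in low IMF 0.25 (exact permutation p = 0.643, n = 6). Without pigs 6 and 12 it was 0.52. The difference between the groups in r was not tested.

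IER5 was tied to the other genes less evenly. With all pigs it reached an adjusted p of at most 0.05 with IER3, at r = 0.71 (permutation p = 0.012, adjusted 0.036) and rho = 0.50 (permutation p = 0.104, adjusted 0.207). Within the groups r was 0.33 in high IMF (exact permutation p = 0.488, n = 6) and 0.84 in low IMF (exact permutation p = 0.0306, n = 6), and it was 0.68 when centred on the group means. Without pigs 6 and 12 it was 0.30, and the adjusted p of this pair was above 0.05 without pig 5, 6, 7, 8 or 12. With EGR2, IER5 had r = 0.60 (permutation p = 0.0428, adjusted 0.0899) and rho = 0.53 (permutation p = 0.0799, adjusted 0.187), and with EGR1 r = 0.36 (permutation p = 0.252, adjusted 0.294) and rho = 0.33 (permutation p = 0.297, adjusted 0.328). Centred on the group means these r were 0.35 and 0.10, and without pigs 6 and 12 they were 0.22 and -0.27. Pig 3, highest for IER5 and low for EGR1, EGR3 and IER2, weighs on these values: without it IER5 also reached an adjusted p of at most 0.05 with EGR2, EGR3 and IER2.

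SRF had r between -0.45 (with IER2) and -0.09 (with IER3), with adjusted permutation p of 0.215 or more. Centred on the group means these values ran from -0.18 (with EGR1) to 0.43 (with IER5). Within the groups, r with SRF was below 0 in high IMF and above 0 in low IMF for EGR1, EGR2, EGR3, IER2 and IER3. For IER5 it was above 0 in both. With EGR2 it was -0.56 in high IMF (exact permutation p = 0.249, n = 6) and 0.89 in low IMF (exact permutation p = 0.0292, n = 6). The difference between the groups in these r was not tested.

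**Figure D5:**
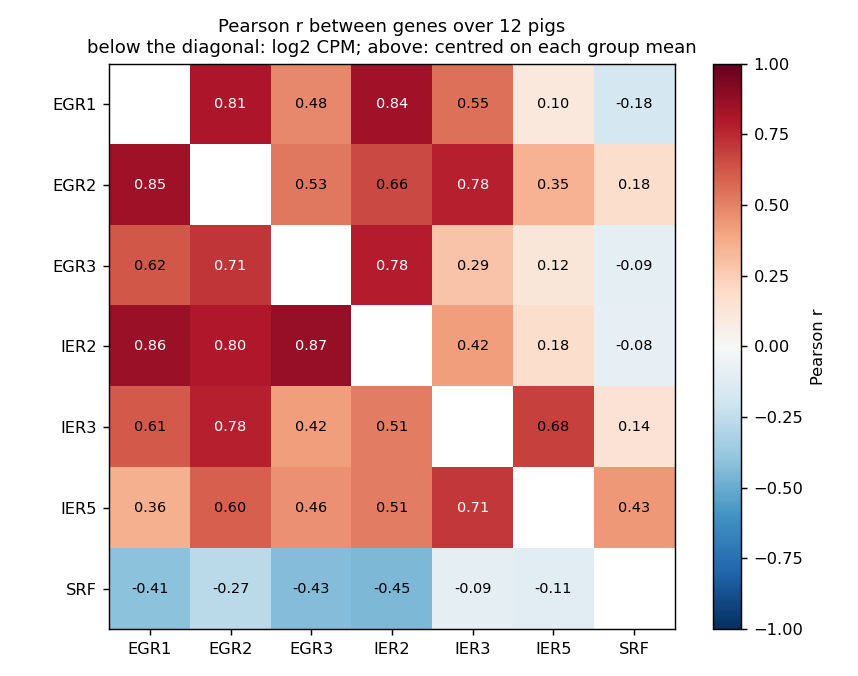
Pearson r between genes over 12 pigs, on log2 CPM below the diagonal and centred on each group's mean above it. Among EGR1, EGR2, EGR3 and IER2, r runs from 0.62 to 0.87 below the diagonal. EGR2 with IER3 (0.78) and IER3 with IER5 (0.71) lie in the same range, and the row of SRF is below 0.

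The genes with the most similar pattern were looked for among 11836 other named genes, by Pearson's r of log2 CPM over the same 12 pigs. For EGR1 they were ARC (r = 0.92), HHATL (0.91) and MYC (0.91). For EGR2 they were DUSP6 (0.95), TNFAIP6 (0.94) and the small nucleolar RNA SNORA31 (0.93). For EGR3 they were ACKR3 (0.89), CFAP161 (0.89) and RGS16 (0.88), and for IER2 HHATL (0.92), TRIM16 (0.89) and TEX14 (0.89). HHATL, at 70.2 to 172 CPM, was thus on the lists of both EGR1 and IER2. Far lower were SNORA31, at 0.295 to 0.904 CPM, and CFAP161, at 0 to 0.182 CPM, so the r with CFAP161 rests on few counts.

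For IER3 the most similar genes were PGM3 (r = 0.93), GPA33 (0.92) and NABP1 (0.89). For IER5 they were FOS (0.96), RASA2 (0.93) and SOCS5 (0.92), and for SRF they included MYORG (0.90). These are the highest of 11836 values and are given as a description. Without pig 6, r fell to 0.83 for EGR1 with ARC and with MYC, and was 0.93 for EGR1 with HHATL, 0.95 for IER5 with FOS and 0.90 for SRF with MYORG.

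FOS, the partner of JUN in the AP-1 factor, had 187 to 662 CPM in the high IMF pigs, median 472, and 44.1 to 452 CPM in the low IMF pigs, median 125. The groups overlapped through pigs 8 and 10, the same low IMF pigs that lay among the high IMF pigs for IER5. JUN had a log2FC of -0.13 (SE 0.20) and ATF3 of -0.31 (SE 0.26), and JUNB was listed at 0 in all pigs, as was HSP90AA1, a gene that every cell uses. Of 20 immediate early transcription factors, 18 had an identifier and 17 were tested. The log2FC was below 0 for 12 of the 17, where 51.6% of all genes were. The list median was -0.27, beside a median of -0.01 over all genes. An unadjusted p of at most 0.05 was given to 3 of the 17 with higher levels in high IMF, where 5.04% of all genes had it. It was given to 2 with higher levels in low IMF, where 5.38% of all genes had it. None of the 17 was called by edgeR or DESeq2.

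Among 25 tested of 26 other early response genes, 23 had a log2FC below 0, where 51.6% of all genes did, with a list median of -0.71. An unadjusted p of at most 0.05 with the higher level in high IMF was given to 13 of the 25, where 5.04% of all genes had it. On the other side it was given to 0 of the 25, where 5.38% of all genes had it. By the DESeq2 Wald test 5 of these genes were called higher in high IMF, where 0.252% of all genes were, and 0 lower, while edgeR called none. They were RGS2, a brake on G protein signalling (DESeq2 log2FC -1.68, adjusted p = 0.000297), GEM, a small GTPase (-0.79, adjusted p = 0.00118), PLK2, a kinase (-1.34, adjusted p = 0.00257), CCN1, a matrix protein (-1.14, adjusted p = 0.0107), and ARC, known as a neuronal activity gene (-3.10, adjusted p = 0.0497). Without pig 6 the DESeq2 Wald test kept RGS2, GEM, PLK2 and CCN1, where 0.182% of all genes were called higher in high IMF, and lost ARC, whose log2FC was then -1.88 with an adjusted p of 0.321. The median log2FC without pig 6 was -0.50 over these 25 genes and -0.11 over the 17 transcription factors. Without pig 6, 10 of the 25 had an unadjusted p of at most 0.05 with the higher level in high IMF, where 3.34% of all genes did. The list was drawn up with the results of these counts known, and ARC is also the gene most like EGR1. Of 9 heat shock genes tested of 12 listed, DNAJB1, a co-chaperone, was called higher in high IMF by the DESeq2 Wald test (log2FC -1.60, adjusted p = 0.00133).

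No direct partner of SRF or of the EGR factors was called by either test. Of 5 SRF cofactors tested, 3 had a log2FC below 0 and 2 above, where 51.6% of all genes were below 0. MRTFA (-0.10, SE 0.17), ELK4 (-0.05, SE 0.14) and ELK3 (-0.39, SE 0.26) had lower means in low IMF. MRTFB (0.41, SE 0.18) and MYOCD (0.86, SE 0.48), the cofactor of heart and smooth muscle, had higher means there. Of the EGR corepressors, NAB1 had a log2FC of -0.31 (SE 0.11) and NAB2 of 0.01 (SE 0.23), with adjusted p of 0.427 and 0.995 by edgeR's quasi-likelihood test.

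The kinases upstream of the ternary complex factors and the structural targets of SRF had list medians near 0. Of 12 genes of the ERK cascade, 9 had a log2FC above 0 and 3 below, where 51.6% of all genes were below 0, with a list median of 0.10. An unadjusted p of at most 0.05 with the higher level in low IMF was given to 2 of the 12, where 5.38% of all genes had it. Of 11 tested muscle and cytoskeletal targets of SRF, such as the actins and tropomyosin 1, 5 had a log2FC below 0 and 6 above, with a list median of 0.12. Their sum was 25374 to 35308 CPM in the high IMF and 26642 to 46391 CPM in the low IMF pigs. An unadjusted p of at most 0.05 was given to 0 of the 11. Of all genes, 5.04% had it with higher levels in high IMF and 5.38% with higher levels in low IMF.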

How the data were processed

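The authors made stranded polyadenylated RNA libraries, trimmed reads with Trimmomatic, and used HISAT2 on Sscrofa11.1, StringTie and HTSeq 0.6.1 (per the labels and methods) to obtain gene counts. The deposited values are raw counts per Ensembl gene, and the strand option, annotation release and treatment of multi-mapped reads are not given in the sources used here. Pigs were grouped by their labels. Genes kept by filterByExpr were scaled by TMM and tested for the group alone in edgeR 4.0.16 under R 4.3.3 (quasi-likelihood), adjusting 14262 p-values after Benjamini-Hochberg. Log2 CPM used a prior count of 2. The DESeq2 1.42.0 Wald test, limma-voom (limma 3.58.1), other scalings, filters and covariates, and each pig left out were alternatives. The scripts were tested on simulated data. RefSeq Sscrofa11.1 gave positions and sequences.

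The genes and lists were chosen with earlier results of these data known. Named are the 7 genes, the 3 genes most correlated with each (some are not reported here), SRF cofactors, EGR corepressors, FOS, JUN, JUNB, ATF3, and listed genes called by edgeR or DESeq2. The smooth muscle and pericyte markers, LEP, S100A8, HSP90AA1, FOSL2, NR4A3 and the muscle markers were named after their values were seen. Separate animals are the replicates, and p-values cover the spread between them.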

Additional observations from a re-analysis of the deposited data

Results flagged for a closer look

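Within each group of 6 pigs, the gap between the highest or lowest pig and its neighbour was set against the whole range of the group for each of the 7 genes, 14 groups in all. The gaps were taken on CPM. For normally spread values chance marks about 1 in 20 groups, and whether CPM are spread so was not tested. In 2 groups the gap exceeded the limit of 0.625 for 6 samples, both times through pig 6 of the high IMF group. EGR1 was at 234 CPM there, with a gap of 0.755 of the range, and EGR2 at 8.86 CPM, with a gap of 0.686 of the range. On log2 CPM neither gap exceeds the limit. For EGR1 pigs 6 and 5 were highest in the high IMF group at 7.87 and 6.04, and pig 3 lowest at 3.49. For EGR2 the same pigs had 3.15, 2.04 and 0.949. Blood cell markers were also highest in pig 6, as were the sums of the macrophage markers, the heat shock genes and the mitochondrial genome. Both lists of early response genes had their highest sum there as well, the other early response genes at 2269 CPM against at most 1551 CPM elsewhere. The part of any of these lists in the values of pig 6 was not tested.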

How the results depend on the processing

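The log2FC of each of the 7 genes kept its sign in 23 of 23 alternatives, and no adjusted p was at or under 0.05 in any of them. The count of genes called was 0 with edgeR, 65 with the DESeq2 Wald test, and 0 to 1 when each pig was left out. The number of pairs of genes with an adjusted p of at most 0.05 was 7, fell to 4 with values centred on the group mean, and ran from 2 (without pig 6) to 10 (without pig 3) when each pig was left out. The median log2FC of the early response lists was -0.52, and -0.32 without pig 6, an alternative added after seeing the data. The cause was not tested. No paired analysis was possible because the pigs are numbered 1 to 12 and the groups share no number. EGR3, with 10 to 105 counts per pig, has the largest counting error of the 7 genes.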
